A study of Mus musculus with 12 samples.

Results

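The 9 genes described here lie beside Runx2 on mouse chromosome 17: Rcan2, Enpp5, Enpp4, Clic5, Supt3, Cdc5l, Aars2, Nfkbie and Hsp90ab1. They were chosen by their position next to the targeted locus, and each was found by matching the mouse Ensembl identifiers of the count files to gene symbols. They are 9 of 39179 gene identifiers in the files, and 9 of 9 passed the filter on low counts, which left 17967 genes for testing. Total RNA of calvariae (the bones of the skull roof) was sequenced from C57BL/6 mouse embryos at embryonic day 17.5 in 12 libraries. The 4 groups of 3 libraries were Runx2+/- embryos of dams given MS-275, WT embryos of dams given MS-275, Runx2+/- embryos of dams given vehicle, and WT embryos of dams given vehicle. MS-275 (entinostat) is an inhibitor of class I histone deacetylases and was injected intraperitoneally into pregnant dams at 10 mg/kg, at 14.5 and again at 16.5 days post coitum, in a mating of 8-week-old mice. Which part of Runx2 the targeted allele lacks, and in which strain it was made, are not given in the sources used here. The labels do not say whether replicates came from separate embryos or litters. The p-values then refer only to the spread between these samples, which may be technical.

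Runx2 encodes the transcription factor that commits mesenchymal cells to the osteoblast lineage, and loss of 1 copy delays closure of the skull vault in mice and in people with cleidocranial dysplasia. A targeted allele can also alter genes beside it, through the DNA carried along with it or through regulatory elements that the change removes, so neighbours show how local the genotype difference is. The 9 neighbours are not known for a common function. Supt3 encodes a subunit of the SAGA histone acetyltransferase coactivator, and Cdc5l a core component of the spliceosome. Clic5 encodes a chloride intracellular channel protein linked to the actin cytoskeleton, and Enpp4 and Enpp5 are paired ectonucleotide pyrophosphatase/phosphodiesterase genes. Rcan2 encodes a regulator of calcineurin and Nfkbie an inhibitor of NF-kappaB. Aars2 encodes the mitochondrial alanyl-tRNA synthetase, and Hsp90ab1 the constitutive cytosolic HSP90 chaperone.

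The deposited files hold counts without coordinates, and positions are those of GENCODE M21 (GRCm38) for the same identifiers. Runx2 occupies chr17:44495987-44814797 on the minus strand. Below it, from the far end inwards, come Rcan2 (chr17:43801351-44039516, plus strand, 456 kb away), Enpp5 (chr17:44078813-44086567, plus, 409 kb), Enpp4 (chr17:44096308-44105809, minus, 390.2 kb) and Clic5 (chr17:44188584-44280172, plus, 216 kb). Supt3 (chr17:44777152-45119290, plus) starts inside Runx2 on the opposite strand. The 2 gene bodies share 37646 bases, all intronic in at least one of them, since 0 exon bases are shared. Above Runx2 come Cdc5l (chr17:45391884-45433737, minus, 577 kb), Aars2 (chr17:45506841-45520843, plus, 692 kb), Nfkbie (chr17:45555703-45563169, plus, 741 kb) and Hsp90ab1 (chr17:45567775-45573271, minus, 753 kb).

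Start windows of RefSeq (build GRCm38.p6), which run from 250 bases before to 50 bases after a transcription start, were available for Runx2 and for 7 of the 9 neighbours, with 10 windows among those 7. Enpp5 and Hsp90ab1 are named only. The windows of Runx2, of Supt3, whose start lies inside Runx2, and of Cdc5l are shown because Supt3 and Cdc5l were, of the 9, the genes whose profiles lay nearest to that of Runx2. Capitals mark the core letters of the RUNX motif, ACCACA, searched on both strands (TGTGGT on the other strand). All matches shown are on the gene's own strand.
Runx2, chr17:44814578-44814877, minus strand: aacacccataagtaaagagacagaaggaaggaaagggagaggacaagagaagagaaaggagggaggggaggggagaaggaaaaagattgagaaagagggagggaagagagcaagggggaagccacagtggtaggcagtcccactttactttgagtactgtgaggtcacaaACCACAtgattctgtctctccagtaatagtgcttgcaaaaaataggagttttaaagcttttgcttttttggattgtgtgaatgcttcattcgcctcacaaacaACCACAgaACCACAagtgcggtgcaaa
Supt3, chr17:44776916-44777215, plus strand: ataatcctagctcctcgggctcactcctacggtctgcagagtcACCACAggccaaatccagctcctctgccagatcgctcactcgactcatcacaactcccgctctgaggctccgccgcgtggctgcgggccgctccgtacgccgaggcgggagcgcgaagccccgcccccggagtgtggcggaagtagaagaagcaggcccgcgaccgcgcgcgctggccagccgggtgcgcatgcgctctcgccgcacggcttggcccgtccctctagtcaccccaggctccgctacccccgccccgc
Cdc5l, chr17:45433658-45433957, minus strand: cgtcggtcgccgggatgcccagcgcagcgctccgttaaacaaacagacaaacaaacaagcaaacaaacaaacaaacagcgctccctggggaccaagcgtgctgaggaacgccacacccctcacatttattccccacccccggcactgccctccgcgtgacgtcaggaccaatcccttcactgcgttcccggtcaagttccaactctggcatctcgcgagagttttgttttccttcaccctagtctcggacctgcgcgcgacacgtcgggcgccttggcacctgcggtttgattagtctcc

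The Runx2 window held 3 matches, the Supt3 window 1 and the Cdc5l window 0. Among all 32851 windows of 300 bases, 16.8% held at least 1 match and 0.183% held at least 3. Of the 10 windows of the neighbours, 1 held a match, that of Supt3. The Runx2 window is 45.3% G and C with 2 CG dinucleotides, the Supt3 window 70.0% with 35 and the Cdc5l window 58.7% with 26, beside medians of 52.7% and 7 over all windows. The files hold no binding or chromatin data for these windows, and a match is a description of the letters only.

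Total counts in genes were 13307456 to 19399760 per library. The library labelled Runx2+/- MS-275 replicate 3 stood apart from its group. On the first principal component, which held 72.5% of the variance, it scored −106, while the other 5 MS-275 libraries scored 83.9 to 140.03 and replicates 1 and 2 of both vehicle groups −122 to −92.7. Its share of reads in no gene was 22.2%, against 5.21% to 8.65% in the other MS-275 libraries. Its osteoblast markers (10 of 10 matched, 0 at 0 counts in every library) summed to 3572 CPM (counts scaled to a common library total, here after TMM), against 40242 to 81442 CPM in the other MS-275 libraries. Its epidermal markers (10 of 10 matched) summed to 1821 CPM and its lens markers (8 of 8 matched) to 705 CPM, where the other MS-275 libraries had 10.03 to 18.6 CPM and 7.26 to 11.1 CPM. Of these markers Lim2 was at 0 counts in all 6 MS-275 libraries, Crygs in 3 of them, and Dsg1a and Ivl each in 2. WT vehicle replicate 3 and Runx2+/- vehicle replicate 3 also lay off their groups, with component scores of 5.51 and −14.5 and lens sums of 13.5 and 15.2 CPM against 693 to 971 CPM in the other vehicle libraries. Where neighbours are described singly, their values for the Runx2+/- MS-275 group are also given without its replicate 3.

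Runx2 itself was read first as a check of the targeted gene. It had 84.1, 93.5 and 34.1 CPM in Runx2+/- MS-275, against 111, 131 and 88.2 CPM in WT MS-275. It had 65.3, 32.8 and 58.1 CPM in Runx2+/- vehicle, against 45.5, 42.4 and 46.1 CPM in WT vehicle. The groups overlapped in both comparisons, and in vehicle 2 of 3 Runx2+/- libraries lay above all WT libraries. Its log2 fold change of Runx2+/- over WT was −0.64 in MS-275 (SE 0.36, 95% interval −1.43 to 0.15, adjusted p by edgeR = 0.388) and 0.22 in vehicle (SE 0.36, interval −0.57 to 1.01, adjusted p = 1.00). Without replicate 3 of Runx2+/- MS-275 the MS-275 value was −0.31 (interval −0.91 to 0.30, adjusted p = 0.895). Reads were summed over the whole gene, and since the missing part is not given, this count does not check the genotype labels. In whole tissue, fewer cells of a type and less RNA per cell cannot be told apart, here and for every gene below.

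Genotype did not change a neighbour past the test under either treatment. In vehicle 0 of 9 neighbours were called at an adjusted p under 0.05 by the edgeR quasi-likelihood test, where 0% of all genes tested were called. With the replicate number as a block in a fit of the vehicle groups alone, 0 of 9 neighbours and 0% of all genes were called. The log2 fold changes ran from −0.40 for Nfkbie to 0.29 for Rcan2, with a median of −0.00 beside −0.01 over all genes, and 4 were above 0 and 5 below. At an unadjusted p under 0.05, 0 of 9 neighbours and 0.306% of all genes passed. A loss of the output of 1 gene copy in cis would be a log2 fold change of −1, and in vehicle 8 of 9 intervals lay wholly above that value, as they did for 63.3% of all genes. The exception was Nfkbie. In vehicle the CPM ranges of the genotypes overlapped for 9 of 9 neighbours, and 4.78% of all genes had ranges that did not overlap.

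Supt3, the one neighbour that overlaps Runx2, had 9.11, 9.26 and 14.6 CPM in Runx2+/- vehicle, against 8.85, 10.3 and 14.8 CPM in WT vehicle. The third library was the high one in both genotypes, and the ranges nearly coincided. Its log2 fold change was −0.04 (SE 0.41, interval −0.95 to 0.86). Cdc5l, the spliceosome gene on the other side of Supt3, had 72.4, 83.2 and 81.8 CPM in Runx2+/- vehicle, against 82.2, 72.6 and 80.4 CPM in WT vehicle. With a log2 fold change of 0.01 (SE 0.22, interval −0.47 to 0.49) it had the narrowest interval of the 9. Clic5, the nearest of the 9 on the other side of Runx2, had 5.04, 5.12 and 7.23 CPM in Runx2+/- vehicle, against 4.55, 5.94 and 6.92 CPM in WT vehicle, and a log2 fold change of −0.00 (SE 0.34, interval −0.76 to 0.76). The paired phosphodiesterase genes had overlapping groups as well. Enpp4 had 9.06, 10.2 and 7.08 CPM in Runx2+/- vehicle, against 8.22, 9.75 and 7.32 CPM in WT vehicle. Enpp5 had 36.6, 64.9 and 28.4 CPM in Runx2+/- vehicle, against 46.1, 50.3 and 21.3 CPM in WT vehicle. In both genes replicate 2 was the highest and replicate 3 the lowest library of each genotype, and the log2 fold changes were 0.06 (SE 0.27) and 0.14 (SE 0.40).

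Rcan2 had 17.7, 33.5 and 21.8 CPM in Runx2+/- vehicle, against 20.7, 24.6 and 14.3 CPM in WT vehicle. Aars2 had 15.4, 14.5 and 9.78 CPM in Runx2+/- vehicle, against 15.1, 18.5 and 12.7 CPM in WT vehicle. Hsp90ab1 had 1189, 1167 and 1379 CPM in Runx2+/- vehicle, against 1168, 1196 and 1571 CPM in WT vehicle. The groups overlapped in all 3 genes, replicate 3 was the lowest library of each genotype for Aars2 and the highest for Hsp90ab1, and the log2 fold changes were 0.29 (SE 0.30), −0.22 (SE 0.32) and −0.08 (SE 0.27).

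In MS-275 0 of 9 neighbours were called, again with 0% of all genes. Their log2 fold changes ran from −1.12 for Nfkbie to 0.58 for Clic5, with a median of −0.18 beside 0.05 over all genes (0.04 beside 0.02 without replicate 3 of Runx2+/- MS-275), and 7 of 9 intervals lay above −1, beside 70.6% of all genes. The exceptions were Nfkbie and Supt3. DESeq2's Wald test called 4.00% of all genes in this comparison and 0 of 9 neighbours. Of the neighbours, 1 had an unadjusted p under 0.05, Nfkbie, beside 15.8% of all genes, and the same gene was the 1 of 9 whose genotype ranges did not overlap, beside 16.7% of all genes.

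Nfkbie, the NF-kappaB inhibitor, had 1.76, 2.71 and 1.65 CPM in Runx2+/- MS-275, against 5.53, 4.99 and 2.76 CPM in WT MS-275. The lowest WT library stood just above the highest Runx2+/- library, and the counts behind these values were small, 19 to 38 in Runx2+/- MS-275 and 32 to 85 in WT MS-275. Its log2 fold change was −1.12 (SE 0.43, interval −2.06 to −0.18, edgeR unadjusted p = 0.0242 and adjusted p = 0.280). Without replicate 3 of Runx2+/- MS-275 it was −0.98 (SE 0.48, adjusted p = 0.688). In vehicle Nfkbie had 2.54, 2.50 and 3.41 CPM in Runx2+/- embryos, against 2.43, 2.94 and 5.78 CPM in WT embryos, with ranges that overlapped and a log2 fold change of −0.40 that became 0.07 without WT vehicle replicate 3. Averaged over both treatments its log2 fold change was −0.76 (SE 0.30, interval −1.42 to −0.10, edgeR unadjusted p = 0.0275 and adjusted p = 0.567). In that averaged comparison 0 of 9 neighbours were called, beside 0% of all genes. Nfkbie was the 1 of 9 with an unadjusted p under 0.05, beside 8.75% of all genes, and the 1 whose interval reached −1, so that 8 of 9 lay above it, beside 86.5% of all genes. Without replicate 3 of Runx2+/- MS-275 the averaged Nfkbie value was −0.69 (SE 0.31, edgeR unadjusted p = 0.0512). The genes with an unadjusted p under 0.05 were then 2 others of the 9, Enpp4 (0.41, SE 0.15) and Clic5 (0.44, SE 0.18), beside 6.74% of all genes.

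On the other side of Runx2, Clic5, Enpp4 and Enpp5 were each high in 2 of 3 Runx2+/- MS-275 libraries. Clic5 had 8.54, 9.41 and 3.96 CPM in Runx2+/- MS-275, against 5.34, 4.99 and 4.31 CPM in WT MS-275. Enpp4 had 17.3, 16.3 and 9.01 CPM in Runx2+/- MS-275, against 9.24, 10.8 and 9.57 CPM in WT MS-275. Enpp5 had 96.0, 99.3 and 49.3 CPM in Runx2+/- MS-275, against 60.5, 68.0 and 90.9 CPM in WT MS-275. In each gene replicates 1 and 2 of Runx2+/- MS-275 were above all 3 WT libraries and replicate 3 below them. With all libraries the log2 fold changes were 0.58 (SE 0.35, adjusted p by edgeR = 0.420) for Clic5, 0.52 (SE 0.27, adjusted p = 0.365) for Enpp4 and 0.16 (SE 0.40, adjusted p = 0.849) for Enpp5. Without replicate 3 they were 0.88 (SE 0.27, interval 0.27 to 1.49), 0.76 (SE 0.22, interval 0.28 to 1.24) and 0.42 (SE 0.40, interval −0.48 to 1.32), with edgeR adjusted p-values of 0.478, 0.464 and 0.914. In that setting the genotype ranges of 4 of 9 neighbours did not overlap, those of Clic5, Enpp4, Enpp5 and Nfkbie, beside 25.8% of all genes, and 0 were called. At an unadjusted p under 0.05, 2 of 9 passed, Enpp4 (0.0054) and Clic5 (0.0094) by edgeR, beside 7.70% of all genes. Skeletal muscle markers (10 of 10 matched, 0 at 0 counts) moved with this comparison too, at 5677, 5756 and 4052 CPM in Runx2+/- MS-275, against 3053, 974 and 552 CPM in WT MS-275, with no overlap. Osteoblast markers stood at 70266 and 40242 CPM in replicates 1 and 2 of Runx2+/- MS-275, against 65211 to 81442 CPM in WT MS-275. The part of these marker differences in the genotype differences was not tested.

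The remaining 5 neighbours had genotype differences in MS-275 of −0.31 to 0.39 on the log2 scale with all libraries and of −0.26 to 0.09 without replicate 3. Supt3 had 24.1, 21.9 and 7.09 CPM in Runx2+/- MS-275, against 17.8, 21.7 and 25.3 CPM in WT MS-275. Cdc5l had 148, 125 and 77.2 CPM in Runx2+/- MS-275, against 121, 146 and 131 CPM in WT MS-275. In both genes replicates 1 and 2 of Runx2+/- MS-275 lay among or beside the WT libraries and replicate 3 was the lowest of the 6. Their log2 fold changes were −0.29 (SE 0.41) and −0.18 (SE 0.22) with all libraries, and turned to 0.09 (SE 0.28) and 0.04 (SE 0.15) without replicate 3. Aars2, the mitochondrial tRNA synthetase gene, had 8.08, 9.33 and 18.7 CPM in Runx2+/- MS-275, against 9.77, 8.35 and 9.57 CPM in WT MS-275, so that here replicate 3 was the high one, and its log2 fold change of 0.39 (SE 0.32) turned to −0.08 (SE 0.25) without it. Rcan2 had 12.7, 19.5 and 11.4 CPM in Runx2+/- MS-275, against 18.2, 15.5 and 16.0 CPM in WT MS-275. Hsp90ab1 had 909.9, 1132 and 918 CPM in Runx2+/- MS-275, against 1383, 1314 and 976 CPM in WT MS-275. The groups overlapped in both, with log2 fold changes of −0.19 (SE 0.30) and −0.31 (SE 0.27) with all libraries and −0.04 (SE 0.32) and −0.26 (SE 0.26) without replicate 3.

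**Figure D1:**
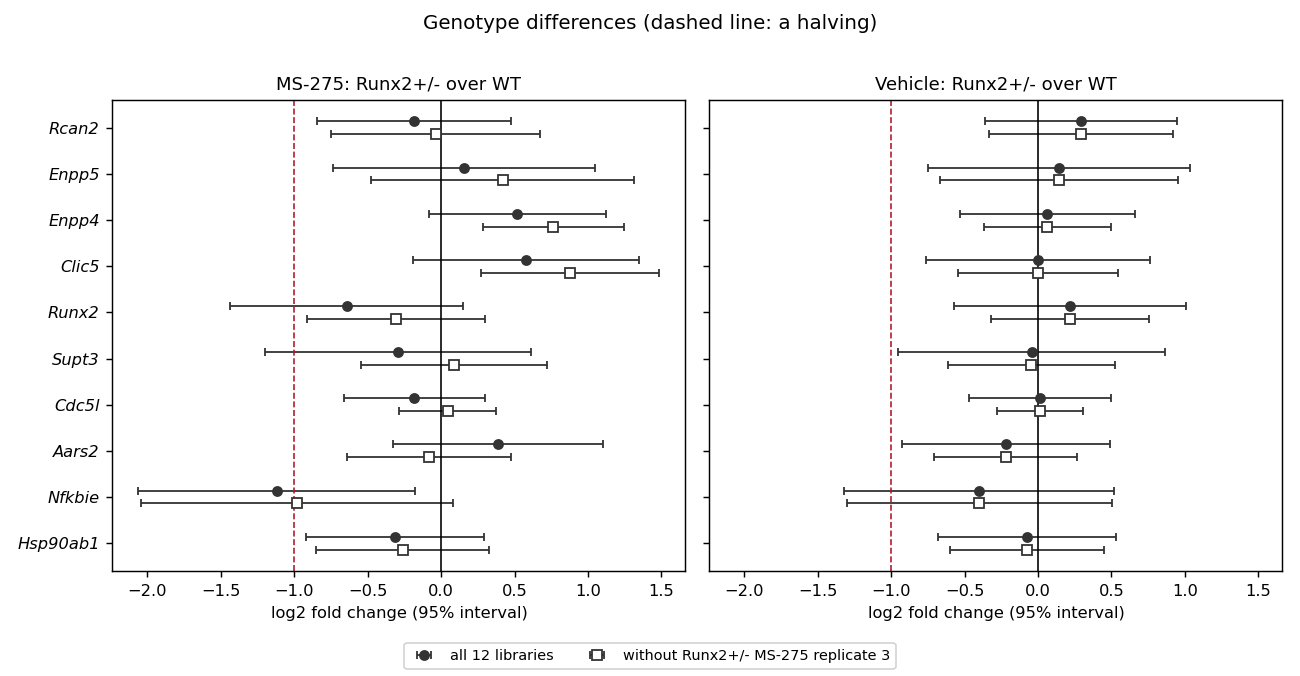
Log2 fold changes of Runx2+/- over WT with 95% intervals (x axis) for Runx2 and its 9 neighbours in chromosomal order (y axis), in MS-275 (left) and in vehicle (right). Filled circles are from all 12 libraries and open squares from the fit without Runx2+/- MS-275 replicate 3, the solid line is 0 and the dashed line −1, a halving; in vehicle the Nfkbie interval alone among the neighbours crosses the dashed line.

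Between the treatments, 5 of 9 neighbours had genotype differences of the same sign, 55.6%, beside 56.2% of all genes tested, and the groups of these 2 comparisons share no library. The test of the difference between the 2 genotype effects (the interaction) called 0 of 9 neighbours, beside 0% of all genes, and 0 of 9 had an unadjusted p under 0.05, beside 5.30% of all genes. Its log2 values ran from −0.72 for Nfkbie to 0.61 for Aars2, with adjusted p-values of 0.873 to 0.996 by edgeR. Without replicate 3 of Runx2+/- MS-275 the Clic5 value was 0.88 (SE 0.37, interval 0.06 to 1.70), with an adjusted p of 1.00. In that fit 2 of 9 had an unadjusted p under 0.05, Enpp4 (0.0369) and Clic5 (0.0382) by edgeR, beside 2.79% of all genes.

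The genotype differences were also set against the other protein-coding genes within 2 Mb of Runx2. There were 59 of these in the files, of which 53 were tested, and edgeR called 0 of 53 in either genotype comparison. In MS-275 DESeq2 called 2 of the 53, which are not named here, beside 4.00% of all genes. At an unadjusted p under 0.05 edgeR passed 11 of 53 in MS-275 (20.8%, beside 15.8% of all genes) and 0 in vehicle. Without replicate 3 of Runx2+/- MS-275 it passed 6 of 53 in MS-275 (11.3%, beside 7.70% of all genes), with a median log2 fold change of 0.03 beside 0.02 over all genes. With all libraries their median log2 fold change of Runx2+/- over WT was 0.11 in MS-275 and −0.09 in vehicle, beside 0.05 and −0.01 over all genes. In vehicle 38 of 53, or 71.7%, were below 0, beside 52.7% of all genes, while among the 9 neighbours 5 were below 0. Without the 3 libraries that stood apart, 54.7% of the 53 were below 0 in vehicle, beside 47.0% of all genes. Within 1 Mb, 23 protein-coding genes were tested, the 9 neighbours among them, and edgeR called 0 for genotype. At an unadjusted p under 0.05 it passed 5 of 23 in MS-275 (21.7%, beside 15.8% of all genes) and 0 in vehicle. Without replicate 3 of Runx2+/- MS-275, 6 of 23 passed in MS-275 (26.1%, beside 7.70%). Their median there was 0.39 with all libraries and 0.09 without replicate 3, beside 0.05 and 0.02 over all genes.

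**Figure D2:**
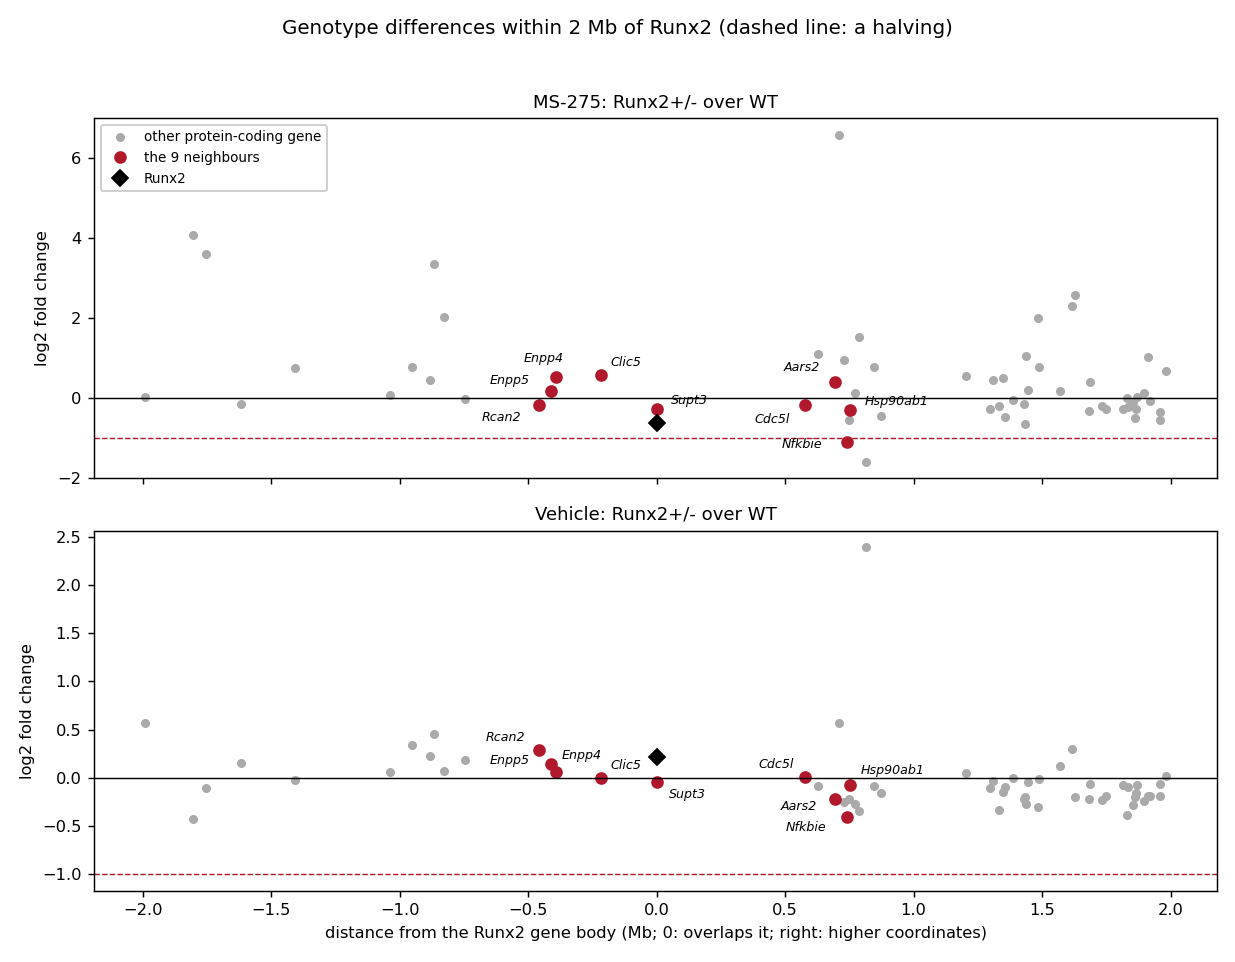
Log2 fold change of Runx2+/- over WT (y axis, a different scale in each panel) against distance from the Runx2 gene body in Mb (x axis) for the tested protein-coding genes within 2 Mb, in MS-275 (top) and in vehicle (bottom). Red points are the 9 neighbours, grey points the other 53 genes and the black diamond Runx2; the dashed line marks −1, and in vehicle the neighbours lie between −0.40 and 0.29.

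The comparison of MS-275 with vehicle asks how the neighbours responded to the drug, and whether they did so beside Runx2. In WT embryos, Cdc5l rose with MS-275, and it was the 1 of 9 called, beside 19.0% of all genes called in either direction and 9.67% called higher. Runx2 was called higher too, at 1.30 on the log2 scale (SE 0.36, adjusted p by edgeR = 0.0439). That call was lost with library size only (0.49, adjusted p = 0.192), with no filter (adjusted p = 0.0545), with the replicate block (adjusted p = 0.0887) and in 9 of the 12 fits that left out 1 library (adjusted p up to 0.135). It held without WT vehicle replicate 3 (0.0475), Runx2+/- MS-275 replicate 1 (0.0325) or Runx2+/- MS-275 replicate 3 (0.00441). Over these 12 fits the Runx2 log2 fold change stayed between 1.16 and 1.44. Cdc5l had 121, 146 and 131 CPM in WT MS-275, against 82.2, 72.6 and 80.4 CPM in WT vehicle. The lowest MS-275 library was well above the highest vehicle library, and the log2 fold change was 0.76 (SE 0.22, interval 0.27 to 1.24, adjusted p by edgeR = 0.0453). The call was close to the threshold. It was lost in 9 of the 12 fits that left out 1 library, with adjusted p-values up to 0.140, held without WT vehicle replicate 3 (0.0491) and Runx2+/- MS-275 replicate 1 (0.0256), and was firmer without Runx2+/- MS-275 replicate 3 (0.00353), while its log2 fold change stayed between 0.69 and 0.82. Cdc5l and Runx2 had the same edgeR adjusted p without WT vehicle replicate 1 (0.132) and without WT MS-275 replicate 3 (0.125). In both of these fits 0 protein-coding genes within 2 Mb were called, the 9 neighbours included. Without Runx2+/- vehicle replicate 3, where the Cdc5l call was also lost, 2 were called. The share of all genes called is not given here for the fits that lost the call.

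The scaling bears on these drug differences. The median gene moved by −0.13 on the log2 scale between WT MS-275 and WT vehicle with scaling by the trimmed mean of M values, and by −0.95 with scaling to library size alone. Under library size alone Cdc5l stood at −0.07, and 4 of 9 neighbours (Rcan2, Clic5, Aars2 and Hsp90ab1) were called lower, beside 39.0% of all genes. Relative to the median gene Cdc5l was higher by 0.88 under both scalings. With no filter on low counts and with the replicate number as a block, 0 of 9 neighbours were called, beside 0% of all genes in each. A fit of the 2 WT groups alone called 3 (Cdc5l and Supt3 higher, Aars2 lower), beside 44.3% of all genes.

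Of the other neighbours in WT, Supt3, Enpp5 and Aars2 had groups that did not overlap but missed the threshold. Supt3 had 17.8, 21.7 and 25.3 CPM in WT MS-275, against 8.85, 10.3 and 14.8 CPM in WT vehicle (log2 fold change 0.93, SE 0.41, adjusted p by edgeR = 0.101). Enpp5 had 60.5, 68.0 and 90.9 CPM in WT MS-275, against 46.1, 50.3 and 21.3 CPM in WT vehicle (0.90, SE 0.41, adjusted p by edgeR = 0.107). Aars2 had 9.77, 8.35 and 9.57 CPM in WT MS-275, against 15.1, 18.5 and 12.7 CPM in WT vehicle (−0.74, SE 0.32, adjusted p by edgeR = 0.0988). With Cdc5l these made 4 of 9 neighbours without overlap, beside 54.8% of all genes. Rcan2, Enpp4, Clic5, Nfkbie and Hsp90ab1 had overlapping groups and log2 fold changes between −0.27 and 0.25. Over the same libraries the osteoblast markers summed to 65211 to 81442 CPM in WT MS-275, against 10677 to 15458 CPM in WT vehicle, the epidermal markers to 13.6 to 16.7 CPM, against 1368 to 4171 CPM, the skeletal muscle markers to 552 to 3053 CPM, against 3163 to 6122 CPM, and the endothelial markers (8 of 8 matched, 0 at 0 counts) to 651 to 862 CPM, against 299.8 to 465 CPM. The part of these shifts in the neighbours' differences was not tested.

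In Runx2+/- embryos the same comparison called 0 of 9 neighbours with all libraries, beside 0% of all genes, and 4 of 9, all higher, without replicate 3 of Runx2+/- MS-275, beside 32.7% of all genes in either direction and 18.5% higher. These 4 were Cdc5l, Supt3, Enpp4 and Enpp5. With all libraries 4 of 9 had an unadjusted p under 0.05 (Cdc5l, Enpp4, Enpp5 and Rcan2), beside 21.0% of all genes. Runx2 itself was not called with all libraries, at 0.44 on the log2 scale (SE 0.36, adjusted p by edgeR = 0.502). It was called higher without replicate 3, at 0.77 (SE 0.27, adjusted p = 0.0495). Without the 3 libraries that stood apart it was at 0.80 (SE 0.31, adjusted p = 0.0561) and not called. Cdc5l had 148, 125 and 77.2 CPM in Runx2+/- MS-275, against 72.4, 83.2 and 81.8 CPM in Runx2+/- vehicle. The log2 fold change of Cdc5l was 0.56 (SE 0.22, adjusted p by edgeR = 0.200) with all libraries and 0.79 (SE 0.15, adjusted p = 0.00606) without replicate 3. Supt3 had 24.1, 21.9 and 7.09 CPM in Runx2+/- MS-275, against 9.11, 9.26 and 14.6 CPM in Runx2+/- vehicle. For Supt3 the log2 fold change was 0.68 (SE 0.41, adjusted p by edgeR = 0.359) with all libraries and 1.06 (SE 0.28, adjusted p = 0.0206) without replicate 3. In both genes replicate 3 of Runx2+/- MS-275 lay at the level of the vehicle libraries or below it, while replicates 1 and 2 were above all of them.

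Both phosphodiesterase genes were called higher in these embryos without replicate 3, and not with all libraries. Enpp4 had 17.3, 16.3 and 9.01 CPM in Runx2+/- MS-275, against 9.06, 10.2 and 7.08 CPM in Runx2+/- vehicle, a log2 fold change of 0.69 (SE 0.27, adjusted p by edgeR = 0.202) that was 0.93 (SE 0.21, adjusted p = 0.0126) without replicate 3. Enpp5 had 96.0, 99.3 and 49.3 CPM in Runx2+/- MS-275, against 36.6, 64.9 and 28.4 CPM in Runx2+/- vehicle, a log2 fold change of 0.91 (SE 0.41, adjusted p by edgeR = 0.233) that was 1.17 (SE 0.40, adjusted p = 0.0477) without replicate 3. Enpp4 in WT had 9.24, 10.8 and 9.57 CPM in MS-275, against 8.22, 9.75 and 7.32 CPM in vehicle, with overlapping groups and a log2 fold change of 0.23 (SE 0.27). The 2 drug differences of Enpp4 were not shown to differ, since their interaction was 0.46 with all libraries (SE 0.38, adjusted p by edgeR = 0.877) and 0.70 without replicate 3 (SE 0.29, interval 0.05 to 1.35, adjusted p = 1.00).

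Rcan2, the calcineurin regulator, had 12.7, 19.5 and 11.4 CPM in Runx2+/- MS-275, against 17.7, 33.5 and 21.8 CPM in Runx2+/- vehicle. The groups overlapped, and the log2 fold change was −0.74 (SE 0.30, adjusted p by edgeR = 0.206), or −0.60 (SE 0.32, adjusted p = 0.164) without replicate 3. Hsp90ab1, the chaperone gene, had 909.9, 1132 and 918 CPM in Runx2+/- MS-275, against 1189, 1167 and 1379 CPM in Runx2+/- vehicle. It was the 1 of 9 neighbours whose groups did not overlap with all libraries, beside 14.9% of all genes, and its log2 fold change was −0.34 (SE 0.27, adjusted p by edgeR = 0.502), or −0.29 (SE 0.26) without replicate 3. Without replicate 3, 7 of 9 neighbours had groups that did not overlap (the 4 called genes, Clic5, Aars2 and Hsp90ab1), beside 63.9% of all genes. In the fit without replicate 3 the WT comparison called 3 of 9 neighbours, Cdc5l and Supt3 higher and Aars2 lower, beside 46.6% of all genes. Leaving out all 3 libraries that stood apart, 3 of 9 were called in WT, beside 60.3% of all genes. In Runx2+/- 6 of 9 were called in that fit, beside 52.8%. The 2 added to the 4 above were Clic5, higher by 0.76 (SE 0.27), and Aars2, lower at −0.83 (SE 0.22). With all libraries neither was called, at 0.33 (SE 0.35, adjusted p by edgeR = 0.606) for Clic5 and −0.13 (SE 0.32, adjusted p = 0.835) for Aars2. Nor was either called without replicate 3 of Runx2+/- MS-275 alone, at 0.63 (SE 0.27, adjusted p by edgeR = 0.0933) for Clic5 and −0.60 (SE 0.25, adjusted p = 0.0858) for Aars2. Osteoblast markers summed to 70266, 40242 and 3572 CPM in Runx2+/- MS-275, against 8383 to 22154 CPM in Runx2+/- vehicle. Epidermal markers summed to 10.03, 18.6 and 1821 CPM in Runx2+/- MS-275, against 1214 to 2826 CPM in Runx2+/- vehicle, and endothelial markers to 913, 729.8 and 243 CPM, against 266 to 370.5 CPM. Skeletal muscle markers summed to 5677, 5756 and 4052 CPM in Runx2+/- MS-275, against 1780 to 5431 CPM in Runx2+/- vehicle. In each list replicates 1 and 2 of Runx2+/- MS-275 lay outside the vehicle range, both above it or both below it. For skeletal muscle they lay above it, while in WT the MS-275 libraries lay below the vehicle range. The part of these shifts in the drug differences was not tested.

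**Figure D3:**
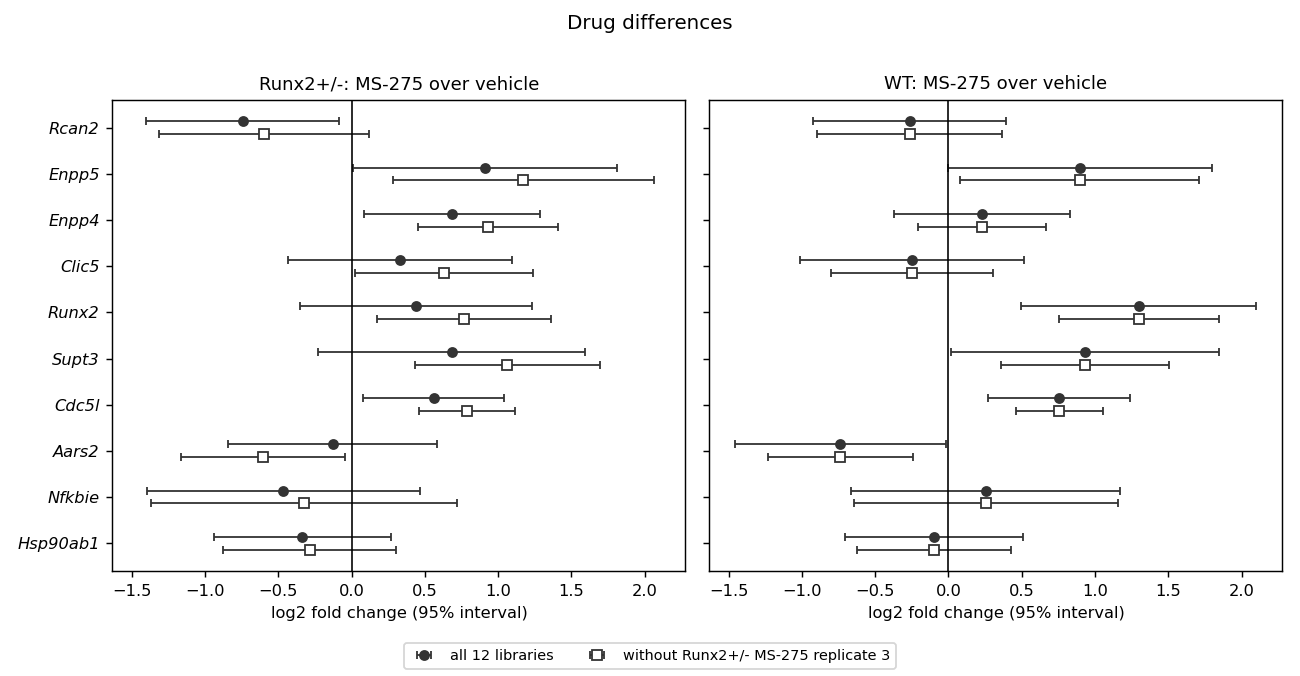
Log2 fold changes of MS-275 over vehicle with 95% intervals (x axis) for Runx2 and its 9 neighbours in chromosomal order (y axis), in Runx2+/- (left) and in WT embryos (right). Filled circles are from all 12 libraries and open squares from the fit without Runx2+/- MS-275 replicate 3; Cdc5l stands at 0.56 and 0.79 in Runx2+/- and at 0.76 in both fits in WT.

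Levels between genes were compared per length, as RPKM (TMM-scaled CPM per kilobase of exon). In WT vehicle Hsp90ab1 was at 437 ± 75.0 RPKM and Cdc5l at 23.8 ± 1.55 RPKM (SD, n = 3), each apart from the rest. Enpp5 (8.08 ± 3.23 RPKM), Runx2 (5.06 ± 0.222 RPKM), Rcan2 (4.55 ± 1.18 RPKM), Aars2 (3.23 ± 0.611 RPKM) and Supt3 (2.75 ± 0.749 RPKM) followed, and each of these overlapped the next in its range. Enpp4 (1.85 ± 0.269 RPKM) and Nfkbie (1.22 ± 0.593 RPKM) overlapped each other, and Clic5 was the lowest at 0.661 ± 0.136 RPKM. Over the 12 libraries the spread was widest for Enpp5, whose highest CPM was 4.66 times its lowest, and narrowest for Hsp90ab1, at 1.73 times. Supt3 and Runx2, whose gene bodies overlap, averaged 3.74 and 7.84 RPKM over the 12 libraries.

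**Figure D4:**
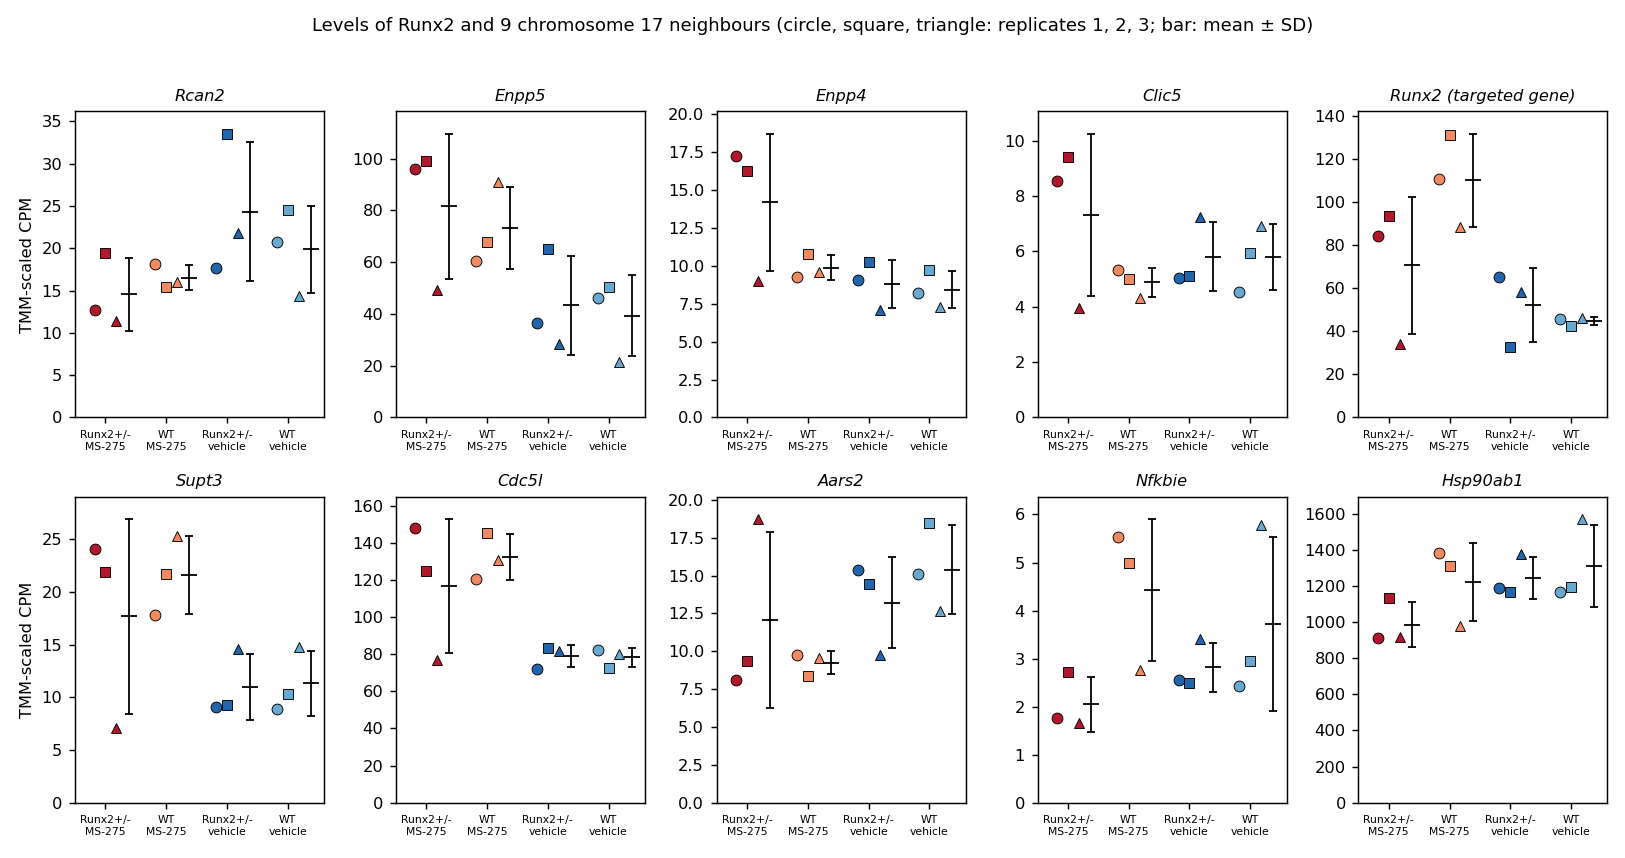
TMM-scaled CPM (y axes, each from 0) of Runx2 and its 9 neighbours in the 4 groups, 1 point per library with the shape giving the replicate number, and the group mean ± SD beside the points. The triangle of Runx2+/- MS-275 lies apart from the other 2 points of its group in Supt3 (7.09 against 21.9 and 24.1 CPM), Cdc5l (77.2 against 125 and 148 CPM) and Aars2 (18.7 against 8.08 and 9.33 CPM).

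Likeness to Runx2 was measured as the root mean square difference between log2 CPM profiles, each centred on its own mean over the 12 libraries. The 3 genes nearest to Runx2 were Itga10 (0.133), Best1 (0.136) and Gm13781 (0.163), none of them a neighbour. Among the neighbours Supt3 (0.365, rank 798 of 17966) and Cdc5l (0.379, rank 1009) were the nearest, and the other 7 ranked between 5727 and 12045. All profiles share the same libraries and their 4 groups, so a near profile says that 2 genes varied alike over these libraries.

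Of the 53 other tested genes within 2 Mb, MS-275 in WT called 1 higher and 6 lower, 13.2%, beside 19.0% of all genes. The higher one was Cd2ap, an adaptor protein of the actin cytoskeleton, 1.62 Mb away, with 177, 237 and 223 CPM in WT MS-275, against 110, 89.3 and 125 CPM in WT vehicle (log2 fold change 0.98, SE 0.28, adjusted p by edgeR = 0.0454). Among the lower ones was Tnfrsf21, the death receptor DR6, with 12.6, 9.09 and 7.76 CPM in WT MS-275, against 37.2, 42.8 and 24.3 CPM in WT vehicle (−1.82, SE 0.41, adjusted p by edgeR = 0.0434). Slc25a27, a mitochondrial carrier of the uncoupling family, had 6.77, 7.12 and 11.04 CPM in WT MS-275, against 39.3, 41.7 and 18.5 CPM in WT vehicle (−1.997, SE 0.58, adjusted p by edgeR = 0.0455). Adgrf4 and Adgrf2, adhesion G protein-coupled receptors, and Tdrd6, a germ-cell tudor protein, were at or near 0 in WT MS-275, with at most 0.195, 0.173 and 0.173 CPM, against 3.75 to 10.5, 1.33 to 3.79 and 0.198 to 1.73 CPM in WT vehicle. Replicate 3 of Runx2+/- MS-275 had 7.22 CPM of Adgrf4 and 67.3 CPM of Slc25a27, where replicates 1 and 2 had 0.279 and 0.239 CPM and 12.8 and 20.7 CPM. In Runx2+/- embryos the drug comparison called 0 of 53 with all libraries. Without replicate 3 of Runx2+/- MS-275, 29 of 53 were called in WT (54.7%, beside 46.6% of all genes) and 18 of 53 in Runx2+/- (34.0%, beside 32.7%).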

How the data were processed

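Each library has 1 deposited file of raw counts, whole numbers of reads for every Ensembl gene, not normalized. Per the submitters' processing notes the tools were Trimmomatic, Bowtie2, SAMtools and HTSeq. Their versions, and the strand option of the counting, are not given in the sources used here. The notes name the human build GRCh38.p7, while the identifiers are mouse Ensembl ones, so positions and exon lengths were taken from GENCODE M21 (GRCm38). The kit marks strand, per the labels. Since the strand setting is not given, reads of Supt3 in Runx2 introns, and of the 110 exon bases (3.33%) that Cdc5l shares with the opposite-strand B230354K17Rik, cannot be assigned with certainty. Apart from strand, reads of Hsp90ab1, which has processed pseudogene copies, cannot be assigned with certainty either. The 5 summary entries of each file stayed out of totals and tests: 5.21% to 22.2% of uniquely aligned reads fell in no gene, while 14.0% to 20.1% of all reads were set aside as multiply aligned.

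Counts were kept by filterByExpr on the 4 groups and scaled with TMM (trimmed mean of M values) factors of 0.598 to 1.33. All 12 libraries entered 1 fit of 4 group means with no covariate, in edgeR 4.0.16 (R 4.3.3), tested with its robust quasi-likelihood method at 8 residual degrees of freedom. P-values are two-sided and adjusted by Benjamini-Hochberg over all 17967 genes, with a threshold of 0.05. Standard errors (SE) are |log2 fold change|/√F, and intervals use the moderated degrees of freedom. No exact permutation test is given, since its smallest p for groups of 3 is 0.1. CPM and RPKM are on the TMM scale. No molecular identifiers are mentioned. Principal components and pairing used log2 CPM with a prior count of 2. DESeq2 1.42.0 and Python 3.11.15 were also used. The edgeR fit was run on simulated counts with genotype changes only, without a drug effect or a library that stood apart. That run therefore does not show how the fit behaves with those features of these data.

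The 9 neighbours, the marker lists and the tests were chosen with earlier results of these data known. Named beside the neighbours were Runx2 and the 3 nearest profiles. Genes within 2 Mb were to be named if edgeR called them in a genotype comparison, and none was called. Those among the 6 smallest p-values past the threshold in an MS-275 comparison were named too. Alternatives were other scalings, DESeq2's Wald test, no filter, only the groups compared, the replicate number as a block, and leaving out each library. Deviations of same-numbered Runx2+/- and WT libraries from their group means correlated at 0.22, 0.75 and 0.81 in vehicle and at −0.20, 0.28 and 0.17 in MS-275. Differently numbered libraries were not compared, and replicate 3 lay off its group in both vehicle groups. These values therefore do not show whether the numbers pair the groups. Any 2 replicates of a group differed beyond sampling noise.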

Additional observations from a re-analysis of the deposited data

How the results depend on the processing

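The counts of neighbours called in the 4 comparisons that involve genotype (vehicle, MS-275, both treatments and the interaction, counted as 0 each) were 0 under every alternative run. DESeq2, which called 702 genes for genotype in MS-275, called 0 of 9 there. The share of all genes called, given in brackets, moved between the alternatives too. Of the fits that left out 1 library, it is given only for that without replicate 3 of Runx2+/- MS-275. For MS-275 in WT 1 of 9 was called (19.0%). The count was 4, all lower, with scaling to library size only (39.0% lower). It was 0 with no filter on low counts (0%) and 3 with only the groups compared (44.3%). Without the 3 libraries that stood apart, an alternative chosen after seeing the data, it was 3 (60.3%). With the replicate number as a block it was 0 (0%), and Cdc5l had 0.75 (adjusted p by edgeR = 0.0887). The block changed no other count of neighbours called. Leaving out 1 library gave 0 to 3, the 3 arising without replicate 3 of Runx2+/- MS-275 (46.6%). For MS-275 in Runx2+/- 0 were called (0%), and 6 without the 3 libraries that stood apart (52.8%). When 1 library was left out it was 0 to 4, the 4 arising without replicate 3 of Runx2+/- MS-275 (32.7%).

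Signs turned for values near 0 and also for some farther from it, and the cause was not tested. Among the latter, with library size only, were 3 drug differences. In the main fit these stood at 0.76 for Cdc5l in WT, and at 0.56 for Cdc5l and 0.68 for Supt3 in Runx2+/-. With library size only the median gene stood at −0.95 in WT and −0.48 in Runx2+/-, beside −0.13 and −0.04 in the main fit. With library size only, the genotype log2 fold change was 0.016 for Clic5 in vehicle, and in MS-275 it was 0.12 for Rcan2, 0.054 for Cdc5l and 0.011 for Hsp90ab1. The same scaling gave −0.60 for Enpp4, −0.074 for Cdc5l and −0.50 for Nfkbie for MS-275 in WT, and −0.29 for Clic5, −0.21 for Runx2, −0.0049 for Supt3 and −0.049 for Cdc5l for MS-275 in Runx2+/-. With the replicate block Clic5 stood at 0.0044 for genotype in vehicle. Without the 3 libraries that stood apart, Hsp90ab1 was at 0.0029 for genotype in vehicle and 0.054 for MS-275 in WT, and Supt3 at 0.045 and Aars2 at −0.13 for genotype in MS-275.

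When 1 library was left out, the genotype log2 fold change in vehicle ran from −0.0089 to 0.48 for Rcan2, −0.27 to 0.37 for Enpp5, −0.061 to 0.19 for Enpp4, −0.19 to 0.15 for Clic5, −0.30 to 0.20 for Supt3, −0.039 to 0.074 for Cdc5l, −0.63 to 0.070 for Nfkbie and −0.16 to 0.076 for Hsp90ab1. In MS-275 it ran from −0.013 to 0.42 for Enpp5, −0.58 to 0.088 for Supt3, −0.39 to 0.045 for Cdc5l and −0.084 to 0.60 for Aars2. For the drug it ran from −0.19 to 0.054 for Hsp90ab1 in WT and from −0.60 to 0.087 for Aars2 in Runx2+/-. Depth limits Nfkbie most, with 19 to 117 counts per library, and then Clic5, with 50 to 142.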

Other observations

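Runx2os1, an antisense transcript that shares 519 exon bases with Runx2, was picked out after its values were seen. It had 3.25, 3.83 and 0.566 CPM in Runx2+/- MS-275 (35, 48 and 13 counts), against 0.195, 0.655 and 0.518 CPM in WT MS-275 (3, 8 and 6 counts). Replicates 1 and 2 of Runx2+/- MS-275 stood above every other library. In vehicle it had 0.139, 0.388 and 0.815 CPM in Runx2+/- embryos, against 0.160, 0.404 and 0.494 CPM in WT embryos, with overlapping ranges. Its log2 fold change of Runx2+/- over WT in MS-275 was 2.47 (SE 0.84, edgeR unadjusted p = 0.0141 and adjusted p = 0.265), and 2.96 (SE 0.71, adjusted p = 0.464) without replicate 3 of Runx2+/- MS-275. With no strand option known for the counting, its reads and those of Runx2 cannot be told apart with certainty.

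B230354K17Rik, a long noncoding RNA that starts beside Cdc5l on the opposite strand and was also picked out after its values were seen, had 52.3, 60.3 and 70.7 CPM in WT MS-275, against 30.6, 29.1 and 38.7 CPM in WT vehicle. The MS-275 log2 fold change in WT, 0.90 (SE 0.28, adjusted p by edgeR = 0.0501), just missed the threshold. In Runx2+/- MS-275 it had 72.4, 72.0 and 32.9 CPM, against 31.4, 32.3 and 41.1 CPM in Runx2+/- vehicle. Its log2 fold change there was 0.76 with all libraries (SE 0.28, adjusted p by edgeR = 0.193), past no threshold. Without replicate 3 of Runx2+/- MS-275 it was 1.05 (SE 0.19, adjusted p by edgeR = 0.00550).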
